A study of Homo sapiens with 8 samples.

Results

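Chromatin accessibility was followed around 10 genes that govern the turnover of extracellular matrix, 7 matrix metalloproteinases (MMP1, MMP2, MMP3, MMP9, MMP10, MMP13 and MMP14) and 3 of their tissue inhibitors (TIMP1, TIMP2 and TIMP3). Peaks of all conditions that shared at least 1 bp were merged into regions, and a region was kept when it overlapped the gene body of one of these genes or the 50 kb on either side. This gave 118 of 126658 regions, 82 around the metalloproteinases and 36 around the inhibitors. The windows of MMP10, MMP1 and MMP3 lie side by side on chromosome 11 and share 16 regions, each of which was counted once in every total over genes. In 43 of the 118 regions the nearest protein-coding transcription start site (TSS) belonged to another gene, and the other 75 were closest to a member.

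Matrix metalloproteinases are zinc-dependent endopeptidases that are made as inactive precursors and, once activated outside the cell, cleave collagens, laminins, proteoglycans and other proteinases. TIMPs bind to the active site of these enzymes and block it, so that the balance of both sets how fast matrix is removed. In epithelia undergoing an epithelial-mesenchymal transition (EMT), metalloproteinases are known for opening basement membrane and for releasing growth factors and adhesion proteins from the cell surface.

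ATAC-seq, which reads out where a transposase can insert adapters into DNA free of nucleosomes, was performed on MCF10A, an established wild-type line of immortalised human mammary epithelial cells, after treatment with solvent or with 5 ng/ml TGFβ1 for 6, 24 or 72 h. The solvent, a solution of BSA in PBS, is labelled time 0, while the study describes it as given for the whole period, and all dishes were kept in medium with serum, EGF, hydrocortisone, cholera toxin and insulin. Each of the 4 conditions had 2 replicates, 8 libraries in all, but the deposited peaks were called on both replicates together. The question was where TGFβ1 opens or closes chromatin, and the data are those of 1 cell line.

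With 1 pooled list per condition no difference had a replicate check, so values are given without a test. The level of a region is its AUC, the area under the peak caller's significance curve, which grows with the height, the width and the read depth of a peak. The lists held 86209, 107656, 118433 and 116720 peaks for solvent and for 6, 24 and 72 h of TGFβ1. At regions within 3 kb of a TSS the median log2 ratio to solvent was 0.44, 0.38 and 0.25, and every AUC was divided accordingly (scaled AUC), the solvent AUC being left as it was. The smallest AUC a peak could have, 200, then equals a scaled AUC of 147, 154 and 169 at the 3 times. Depth is not known, and a higher AUC in a bulk library cannot tell more cells with an open site from more cuts per cell. The cells carried open TSSs at 8 of 8 epithelial marker genes and at 0 of 6 markers of blood and endothelial cells in solvent.

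The sequences at the 7 regions to which the results return are printed first. All are read from the plus strand of GRCh38, and capitals mark matches to the AP-1 motif (TGAGTCA, or TGACTCA on the other strand) or to the RUNX motif (TGTGGT, or ACCACA). The first 3 reach 100 bases to either side of the summits of the region with the largest increase, of the strongest region without a solvent peak and of an intronic region of a gelatinase gene. They were chosen after their values had been seen. The first holds an AP-1 match 29 bp from the summit, the MMP9 window holds none of the 4 motifs searched, and the MMP2 window holds a RUNX match.
MMP14, 14942 bp downstream of the TSS, chr14:22851427-22851627: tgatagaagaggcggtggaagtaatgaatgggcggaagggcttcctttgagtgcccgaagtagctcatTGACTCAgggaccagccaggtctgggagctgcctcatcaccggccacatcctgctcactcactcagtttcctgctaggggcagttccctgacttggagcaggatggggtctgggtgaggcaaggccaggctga
MMP9, 3913 bp upstream of the TSS, chr20:46004895-46005095: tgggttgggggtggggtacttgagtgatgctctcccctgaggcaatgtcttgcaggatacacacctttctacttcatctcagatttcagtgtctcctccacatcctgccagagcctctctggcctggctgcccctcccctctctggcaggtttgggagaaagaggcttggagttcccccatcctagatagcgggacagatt
MMP2, 21020 bp downstream of the TSS, chr16:55500118-55500318: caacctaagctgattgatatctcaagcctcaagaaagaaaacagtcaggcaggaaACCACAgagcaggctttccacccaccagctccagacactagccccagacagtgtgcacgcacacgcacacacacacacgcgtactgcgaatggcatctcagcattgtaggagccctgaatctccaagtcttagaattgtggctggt
The next 4 are stretches of 29 bases centred on AP-1 matches, in the regions with the largest ratio at 72 h in the windows of MMP13, MMP2, TIMP2 and TIMP3. They are shown because they hold a match, as does the corresponding region of TIMP1, whereas the regions with the largest ratio in the windows of MMP1 and MMP3 (the same region), MMP9 and MMP10 hold none within 100 bases of the summit.
MMP13, chr11:102987068-102987096: aagcacacccaTGAGTCAtattgaatcag
MMP2, chr16:55472614-55472642: tgagccttcagTGAGTCAtagtctttttg
TIMP2, chr17:78936171-78936199: gctgttggtggTGACTCActgctactccg
TIMP3, chr22:32897590-32897618: ggttcagatccTGACTCAgccacttctta
The printed AP-1 match lay 19 bp from the summit at MMP13, 51 bp at MMP2, 26 bp at TIMP2 and 1 bp at TIMP3. The TIMP3 region holds another AP-1 match, 55 bp from the summit, which is not printed.

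In the lists as deposited, every site around these genes that was open in solvent kept a peak under TGFβ1. In summed AUC such sites passed 1.5-fold upwards more often than downwards. The same held over all shared regions, with 22.9% higher and 3.9% lower at 72 h. The loss count depended on the length of the lists. Per covered base 5, 11 and 9 sites were 1.5-fold higher at 6, 24 and 72 h, and 6, 3 and 7 were lower. The higher ones were 6.33%, 13.9% and 11.4%, against 5.41%, 10.5% and 11.6% of all regions. The lower ones were 7.59%, 3.8% and 8.86%, against 4.62%, 3.97% and 3.97%. Of the 118 regions, 79 had a peak in solvent, and all 79 had one in each of the TGFβ1 lists as well. A count of 0 among 79 allows a loss of up to 3.8%, while over all regions 0.714%, 1.86% and 3.44% of solvent sites were lost at 6, 24 and 72 h. Peaks that were absent in solvent appeared in 20 of 99 regions with a peak in either list at 6 h (20.2%, 95% Wilson interval 13.5 to 29.2), in 32 of 111 at 24 h (28.8%, 21.2 to 37.9) and in 27 of 106 at 72 h (25.5%, 18.1 to 34.5). Over all regions these shares were 22.9%, 29.8% and 29.3%, so the genes gained sites at about the rate of the genome. The intervals cover counting error only, and both counts depend on the length of the lists. When every list was cut to the length of the solvent list, 7, 10 and 10 sites were gained and 2, 6 and 10 of the 79 were lost, with 5.96%, 10.8% and 13.5% lost over all regions. A minimum AUC of 400 gave 3 losses among 60 at 72 h (5%), against 2.94% of all regions. Windows of 100 kb gave 0, 4 and 5 among 116. These were 0%, 3.45% and 4.31%, against 0.714%, 1.86% and 3.44% of all regions.

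Among the 79 sites shared with solvent, 17 were at least 1.5-fold higher at 6 h (21.5%, interval 13.9 to 31.8). At 24 h there were 20 (25.3%, 17 to 35.9), and 72 h of TGFβ1 gave 24 (30.4%, 21.3 to 41.2). The same threshold was passed by 11.7%, 20.3% and 22.9% of all shared regions. Sites at least 1.5-fold lower numbered 0, 2 and 4 after 6, 24 and 72 h, against 1.4%, 3.22% and 3.9% of all regions. The median log2 ratio of the shared sites was 0.18, 0.21 and 0.25, compared with 0.06, 0.12 and 0.15 over all regions. When the lists were scaled by all shared regions, the split at 24 h was 16 higher and 5 lower. These were 20.3% and 6.33%, against 15.7% and 4.89% of all regions.

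The sites that became larger also became wider. All 24 sites that were 1.5-fold higher at 72 h covered more bases at 72 h than in solvent, with a median of 242 bp in solvent and 492 bp at 72 h. Divided by the bases covered, 17 of the 24 were still above their solvent value and 9 were still 1.5-fold higher. By this measure 5, 11 and 9 of the 79 sites were 1.5-fold higher at the 3 times, or 6.33%, 13.9% and 11.4%, against 5.41%, 10.5% and 11.6% of all regions. Lower per base by the same factor were 6, 3 and 7 sites (7.59%, 3.8% and 8.86%), against 4.62%, 3.97% and 3.97% of all regions. Lower sites thus outnumbered higher ones at 6 h, and the median log2 ratio per base was 0.00, 0.06 and 0.06 around these genes and 0.02, 0.06 and 0.06 over all regions. Confined to 10 kb around the genes, 9 of 42 sites were 1.5-fold higher at 72 h (21.4%), which is near the 22.9% of all regions.

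These shares were higher around the metalloproteinases than around the inhibitors. Around the metalloproteinases 15, 16 and 20 of 54 shared sites were at least 1.5-fold higher at 6, 24 and 72 h (27.8%, 29.6% and 37.0%), and 0, 1 and 1 were lower. Of the 20 higher at 72 h, 12 were among the 22 shared sites around MMP1, MMP3, MMP10 and MMP13 on chromosome 11. Of the other metalloproteinases, MMP2 had 3 of 14 higher, MMP9 1 of 6 and MMP14 4 of 12, with 22.9% over all regions. Around the inhibitors 2, 4 and 4 of 25 were higher (8%, 16% and 16%), and 0, 1 and 3 were lower. With scaling by all shared regions the split at 24 h was 13 higher and 3 lower for the metalloproteinases, and 3 higher and 2 lower for the inhibitors. The higher ones were 24.1% and 12%, against 15.7% of all regions, of which 4.89% were lower. The interval at 72 h ran from 25.4 to 50.4% for the metalloproteinases and from 6.4 to 34.7% for the inhibitors, so the shares overlap within counting error. Per covered base the shares at 72 h were 13% and 8%, with 11.6% over all regions, and 3 sites around the metalloproteinases and 4 around the inhibitors were lower.

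**Figure D1:**
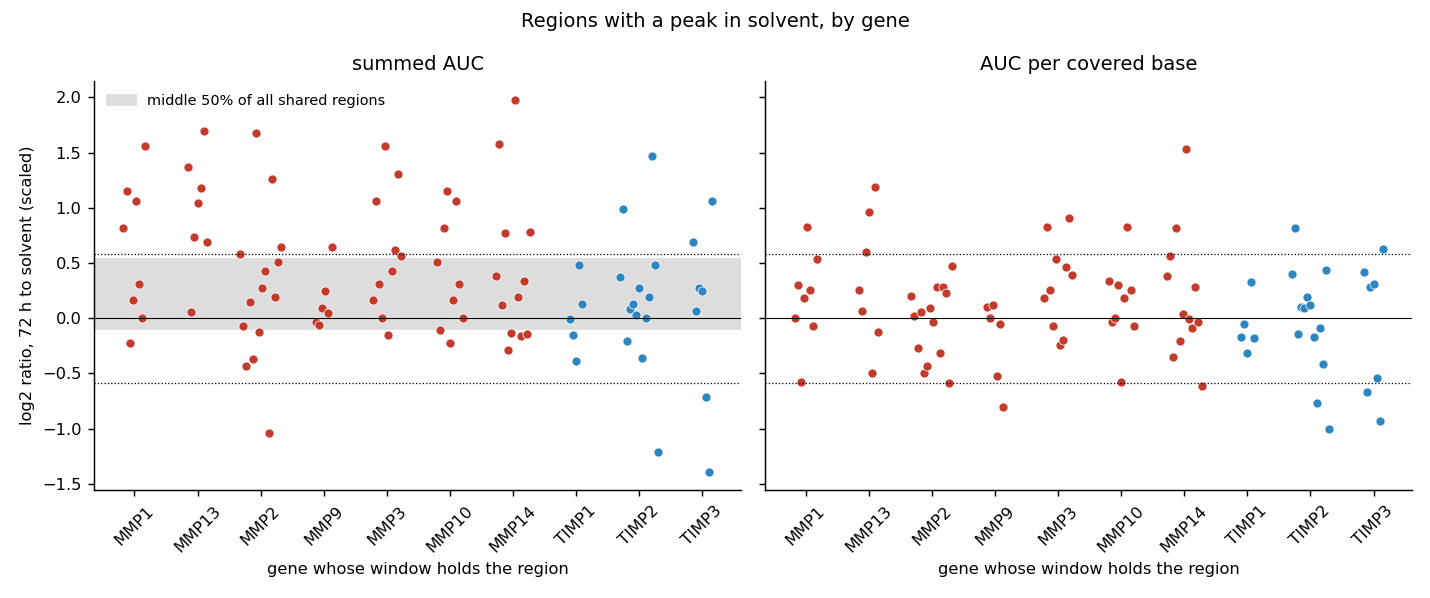
Log2 ratio of the scaled AUC at 72 h to solvent for every region with a solvent peak, by the gene whose window holds it (red metalloproteinases, blue inhibitors), from the summed AUC on the left and the AUC per covered base on the right. Regions in several windows appear under each gene, dotted lines mark 1.5-fold, the grey band spans the middle 50% of all shared regions, and the highest point, at MMP14, stands at 1.98 on the left and 1.53 on the right.

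Summed within 50 kb, the highest ratios were those of the collagenase and stromelysin genes of chromosome 11, an order that depended on the window. At 72 h the log2 ratio of the summed scaled AUC to solvent was 1.01 for MMP13, 0.95 for MMP1, 0.77 for MMP10 and 0.71 for MMP3. All 4 lay above the 0.64 that marks the highest 10% of 18792 protein-coding genes with solvent AUC in their windows. The gelatinase genes MMP2 and MMP9 both reached 0.42, MMP14 0.24, TIMP3 0.25 and TIMP2 0.15, and TIMP1 was at -0.03. Over coding genes the successive medians were 0.05, 0.10 and 0.11, and 9 of the 10 members exceeded the median at each time. MMP1, MMP3 and MMP10 share regions, so their totals are not separate measurements. Within 10 kb MMP9 stood highest with 2.20, ahead of MMP13 with 1.63, MMP10 with 0.86, MMP3 with 0.68 and MMP1 with 0.41, and TIMP3 was at -0.04. Within 100 kb MMP9 was the lowest with 0.15. The sign of TIMP1 was not stable, its value being positive without scaling (0.22), with scaling at coding TSSs (0.03), within 10 kb (0.07), within 100 kb (0.19), by −log10 p (0.01) and over regions nearest to a member (0.26). Leaving out the scaling raises every log2 ratio at 72 h by 0.25.

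In solvent the windows differed widely in openness. MMP14 had 223 units of AUC per kb of window and TIMP2 117, both above the median coding gene at 71. MMP9 with 76.5 and TIMP1 with 69.7 were near that median. MMP10, MMP2, MMP1 and MMP3 followed with 57.7, 56.3, 50.5 and 47, and the lowest levels were those of MMP13 with 33.5 and TIMP3 with 28.4. Much of the MMP14 level came from neighbours, since the strongest solvent region of all 118, with an AUC of 6506, covered the TSS of LRP10.

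**Figure D2:**
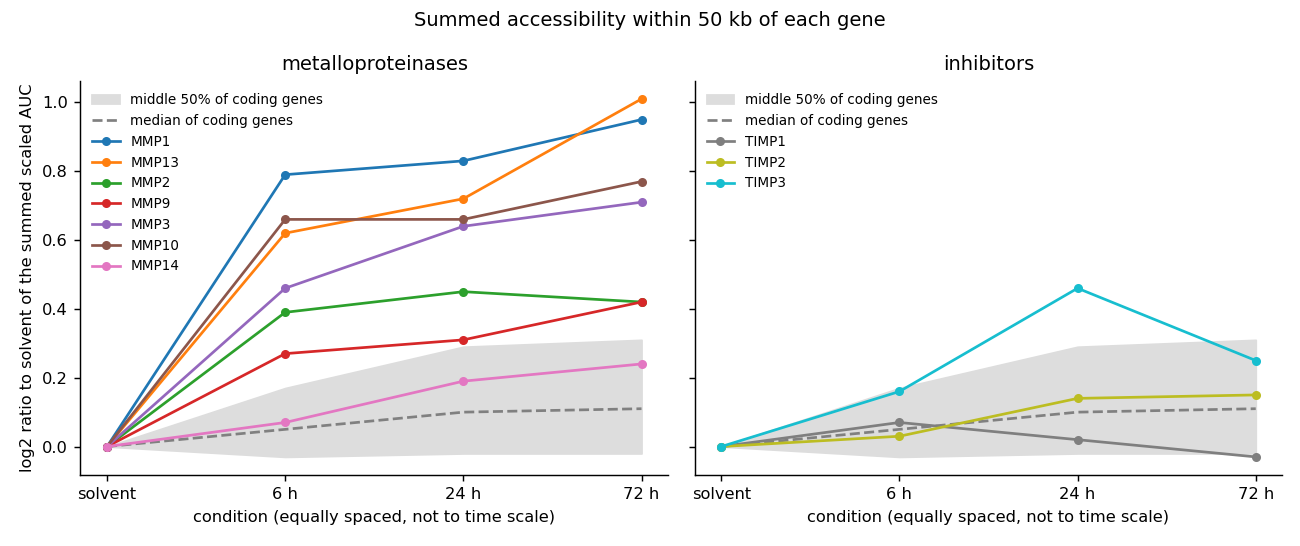
Log2 ratio to solvent of the scaled AUC summed within 50 kb of each gene at 6, 24 and 72 h, metalloproteinases on the left and inhibitors on the right, 1 pooled list per condition. The grey band is the middle 50% of protein-coding genes and the dashed line their median; MMP13 and MMP1 end at 1.01 and 0.95, TIMP1 at -0.03.

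The interstitial collagenases MMP1 and MMP13 cleave the triple helix of fibrillar collagens. Around MMP1 the TSS itself was open from the start and altered little. Its region, which spans chr11:102798002-102798570 and lies inside an intron of the overlapping pseudogene WTAPP1, had a scaled AUC of 897 in solvent and of 1045, 1036 and 1008 after 6, 24 and 72 h. The difference at 72 h was 0.17 in log2, close to the median of all regions. A site 4422 bp upstream of this TSS moved further, from 382 in solvent to 638, 635 and 799, or 2.09-fold at 72 h, and remained higher per covered base with a log2 ratio of 0.83. A weak new peak 10035 bp upstream, with 205, 177 and 207 at 6, 24 and 72 h, stood barely above the threshold.

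MMP13 had no peak at its TSS in any list. The nearest region began 2286 bp away and appeared at 72 h alone, with a scaled AUC of 176. The gain in this window came instead from an intronic site and from sites far from the gene, 6 of its 7 shared sites being at least 1.5-fold higher at 72 h. In the intron, 4750 bp downstream of the TSS, the scaled AUC was 420 in solvent and 1011, 1170 and 866 after 6, 24 and 72 h of TGFβ1. This site was highest at 24 h and covered a similar length throughout, 429 bp in solvent and 476 bp at 72 h, so that its log2 ratio per base, 0.96, was close to the 1.04 of the summed AUC. The site 31331 bp upstream, whose AP-1 match is printed above, went from 211 to 510, 693 and 683, the largest ratio of the window with 3.24-fold at 72 h. At 55177 bp downstream the values were 516, 905, 1146 and 1337, which is 2.59-fold at 72 h but 0.26 in log2 per covered base. The coding TSS nearest to this site, and to another of the 6 at 43104 bp downstream, is that of MMP12. A site 19404 bp upstream stayed at 484, 571 and 565 until 24 h and reached 1093 at 72 h, where its peak had widened from 230 to 769 bp and its value per base was lower than in solvent, with a log2 ratio of -0.50.

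The stromelysins MMP3 and MMP10 cleave proteoglycans, laminin and fibronectin and can activate other metalloproteinase precursors. At MMP10 the TSS was among the sites that became larger. Its region, chr11:102780428-102780923, had a scaled AUC of 686 in solvent and 1161, 1494 and 1526 after 6, 24 and 72 h of TGFβ1, a 2.22-fold difference at the last time. Of the 11409 regions with a solvent AUC within 20% of this one, 5.47% had an equal or higher ratio at 72 h. The peak grew from 249 to 472 bp, and per covered base the log2 ratio was 0.30. In summed AUC MMP10 thus had an open TSS that enlarged, whereas the neighbouring MMP1 TSS kept its level. Per covered base the log2 ratio of the MMP1 TSS was 0.18, so that both stayed within 1.5-fold by this measure.

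MMP3 was closed at its TSS in solvent. No peak lay there in solvent or at 6 h, and the region chr11:102843541-102843805 had a scaled AUC of 189 at 24 h and 227 at 72 h. This was a weak peak, and 73.7% of all 34232 regions gained at 72 h were as strong or stronger. Further into the gene, over an exon 7091 bp downstream of the canonical TSS, the scaled AUC was 298, 685, 827 and 876 in solvent and at 6, 24 and 72 h. This 2.94-fold difference was the largest of the MMP3 and MMP1 windows, and per covered base its log2 ratio was 0.54. Upstream of MMP3, a site at 5908 bp went the other way at 24 h, with 516 in solvent and 414, 330 and 466 after 6, 24 and 72 h of TGFβ1.

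Downstream of MMP10 a group of sites opened that had no solvent peak. At 22161 bp from the MMP10 TSS the scaled AUC was 220, 447 and 732 after 6, 24 and 72 h. At 16960 bp it was 174, 392 and 610, both sites being higher at each later time. Between them, at 18018 bp, the peak was near its full size at 6 h, with 584, 618 and 739. A site at 20075 bp that was already open had 751 in solvent and 1234, 1075 and 1327 under TGFβ1, with a log2 ratio per base of 0.00 at 72 h. All 4 lie in introns of WTAPP1, in windows of both MMP10 and MMP1. Not every site of the cluster increased, as the strongest one in solvent, 3357 bp upstream of the MMP10 TSS, had 1972 in solvent and 2504, 1598 and 1691 after 6, 24 and 72 h of TGFβ1. Over the 34 regions on this stretch of chromosome 11, MMP13 included, 9, 8 and 12 of 22 shared sites were 1.5-fold higher (40.9%, 36.4% and 54.5%), with a median log2 ratio of 0.45, 0.43 and 0.65. Over all regions the shares were 11.7%, 20.3% and 22.9% and the medians 0.06, 0.12 and 0.15. Per covered base 3, 5 and 5 of the 22 were higher (13.6%, 22.7% and 22.7%), 1, 1 and 0 were lower, and the median was 0.15, 0.20 and 0.26, with 5.41%, 10.5% and 11.6% of all regions higher by this measure.

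**Figure D3:**
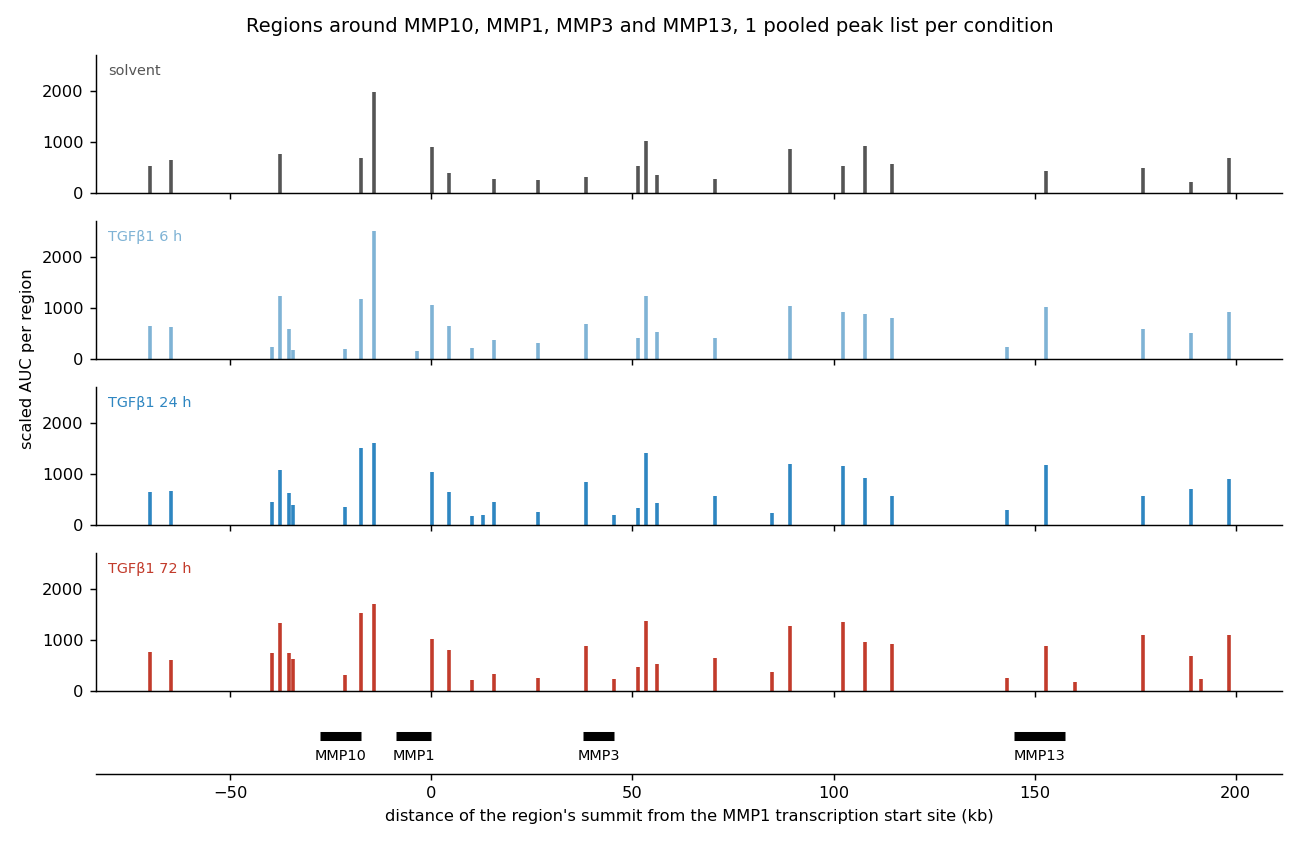
Scaled AUC of each region around MMP10, MMP1, MMP3 and MMP13 in the solvent list and the 3 TGFβ1 lists, by distance of its summit from the MMP1 TSS in kb, with gene bodies below. The group of lines left of MMP10 is a single line of 751 in solvent and 4 lines at 72 h, and the line over MMP3 at 298 in solvent is at 876 at 72 h.

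The gelatinases MMP2 and MMP9 degrade denatured collagen and the type IV collagen of basement membranes. MMP9 carried the strongest newly opened site of all 118 regions. At chr20:46004716-46005271, with the summit 3913 bp upstream of the TSS, no peak was called in solvent, and the scaled AUC was 892, 1396 and 1483 after 6, 24 and 72 h. Its unscaled AUC of 1760 at 72 h compares with a threshold of 200 and a median of 361 over gained regions, and 0.698% of the 34232 gained regions were as strong. Another site opened 581 bp upstream, with 441, 493 and 659, and 10.7% of gained regions were as strong. The TSS itself carried no peak in any list, this site ending 299 bp before it.

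Within the MMP9 gene, 5398 bp downstream of the TSS, a site went from 707 in solvent to 1065, 1051 and 1109, 1.57-fold at 72 h. Its peak widened from 236 to 679 bp, and per covered base it was below solvent at each time, with log2 ratios of -0.64, -0.95 and -0.80. The strongest region of the window, 15244 bp upstream, kept its level with 3249 in solvent and 3085, 3109 and 3357 under TGFβ1. The same holds for 3 regions at the neighbouring gene ZNF335, whose log2 ratios at 72 h lay between -0.06 and 0.09. At 72 h all sites past 1.5-fold in summed AUC or without a solvent peak were thus among the 3 closest to the MMP9 TSS.

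MMP2 showed both directions within its gene body in summed AUC. Its longest annotated form spans chr16:55389700-55506691, and all values are given from the canonical TSS, where no peak was called. The closest region, at an alternative TSS 1327 bp downstream, was nearly level with 494 in solvent and 491, 517 and 454 under TGFβ1. An intronic site 21020 bp downstream, chr16:55499825-55500928, went from 1089 to 1921, 2525 and 2617. This was 2.4-fold at 72 h, and 1.14% of 9700 regions with a similar solvent AUC had such a ratio. Its peak grew from 515 to 1069 bp and the log2 ratio per base was 0.28. In the same part of the gene, 16852 bp from the TSS, another intronic site went down from 1303 to 1203, 873 and 633, 0.486-fold at 72 h, with 1.66% of similar regions as low. Its peak narrowed from 533 to 338 bp, and per base the log2 ratio was -0.31, which is within 1.5-fold. Upstream, at 6519 bp, the scaled AUC was 347 in solvent and 1118, 894 and 1115 later. That peak was 173 bp wide in solvent and 786 bp in 2 parts at 72 h, and per base it was lower than in solvent, with a log2 ratio of -0.43.

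MMP14, also known as MT1-MMP, is anchored in the cell membrane, cleaves pericellular collagen and activates the precursor of MMP2. Its TSS lay in a broad region of 3533 bp that was among the most open of all members and varied little, with a scaled AUC of 5598 in solvent and 5449, 5246 and 5120 after 6, 24 and 72 h. The main difference arose beyond the end of the gene. At chr14:22850955-22851849, 14942 bp downstream of the TSS, the scaled AUC was 882 in solvent and 2076, 3167 and 3493 after 6, 24 and 72 h of TGFβ1. The folds were 2.35, 3.59 and 3.96 at the successive times, the largest of the 79 shared sites at 24 and 72 h, while at 6 h the site 6519 bp upstream of MMP2 was higher with 3.22 and both MMP13 sites described above with 2.41 and 2.42. Among 10675 regions with a solvent AUC within 20%, 0.112% had an equal or higher ratio at 72 h. It was also among the 9 that passed 1.5-fold per covered base, with a log2 ratio of 1.53 against 1.98 for the sum. The TSS nearest to it is that of an annotated Y RNA, and the nearest coding TSS belongs to MMP14.

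Other sites in the MMP14 window followed at a distance. The region 16721 bp downstream, next to the one just described, had 2200, 2214, 2421 and 2501 and so stayed within 1.5-fold. An SLC7A7 site 15591 bp upstream of MMP14 went from 246 to 438, 451 and 734, or 2.99-fold at 72 h, with a log2 ratio per base of 0.56. A new site in an intron of SLC7A7, 45042 bp upstream, had 336, 616 and 836 after 6, 24 and 72 h. SLC7A7, LRP10 and REM2 lie in this window, and 5 of its 16 regions had MMP14 as the nearest coding gene.

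**Figure D4:**
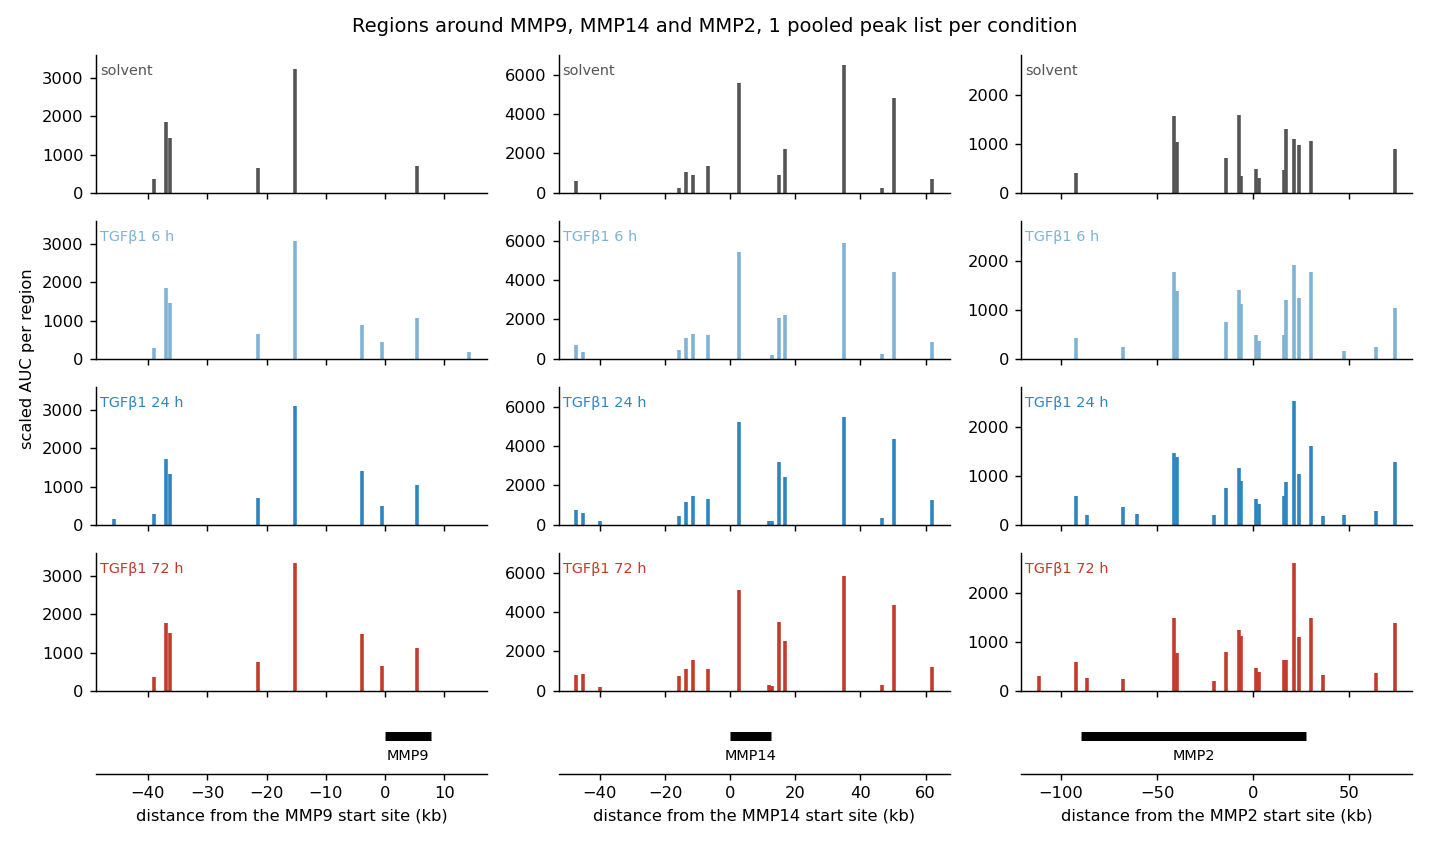
Scaled AUC of each region around MMP9, MMP14 and MMP2 in the solvent list and the 3 TGFβ1 lists, by distance of its summit from the canonical TSS in kb, with the gene body below. A pair of lines just upstream of MMP9 appear at 6 h and stay, the line just beyond MMP14 goes from 882 to 3493 beside a TSS that stays between 5120 and 5598, and in MMP2 one intronic line is at 2617 at 72 h while its neighbour is at 633.

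Among the inhibitors, TIMP1, which binds most secreted metalloproteinases and lies within an intron of SYN1, had no shared site past 1.5-fold at any time. At its TSS the scaled AUC was 1494 in solvent and 1569, 1729 and 1634 at 6, 24 and 72 h. A site 2698 bp upstream had 754, 888, 936 and 1052, and one 8727 bp upstream, close to the SYN1 TSS, had 1180, 1234, 975 and 903. Peaks gained at 6 h 4774 and 13343 bp downstream, with 245 and 171, were absent at 72 h.

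TIMP2, which blocks MMP2 and also helps MMP14 to activate it, showed a passing increase at its TSS. The scaled AUC there was 350 in solvent and 649, 516 and 350 after 6, 24 and 72 h of TGFβ1, back at the solvent level. The peak covered 199 bp in solvent and 804 bp at 6 h, and per base it was below solvent at 6 h with a log2 ratio of -0.98. The largest ratio of the window was upstream, at 10772 bp, where the values were 573, 1011, 1576 and 1584, 2.76-fold at 72 h. Of 11493 similar regions 3.23% had such a ratio, but the peak grew from 225 to 865 bp and its log2 ratio per base was -0.41. A site in LGALS3BP, 50064 bp upstream of TIMP2, went from 583 to 532, 341 and 252, which is 0.433-fold. The strong solvent sites of this gene, such as that of 3238 at 8209 bp upstream, stayed within 1.5-fold with 3379, 3648 and 3687.

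TIMP3, the inhibitor that is bound to the matrix itself, lies within the gene SYN3. Its TSS had 1093 in solvent and 1205, 1615 and 1313 after 6, 24 and 72 h of TGFβ1, highest at 24 h as was the total of its window. A pair of sites inside the gene was lower at 72 h. The one 45507 bp downstream had 631 in solvent and 746, 564 and 241 after 6, 24 and 72 h of TGFβ1, 0.382-fold, the lowest ratio of the 79 shared sites, with 0.96% of 11464 similar regions as low. Another intronic site, 8983 bp downstream, was lower at each time, with 451, 319, 312 and 277. Beyond the gene, 95898 bp from the TSS, the site with an AP-1 match printed above went from 462 to 622, 892 and 960, 2.08-fold at 72 h.

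New sites differed in when they appeared and whether they stayed. Of the 39 regions without a solvent peak, 20 were first seen after 6 h, another 15 after 24 h and 4 not before 72 h, while 12 had lost the peak again by the last time. In all 3 TGFβ1 lists 14 had one, which is 11.9% of the 118 regions against 14.3% of all regions. Another 9 had one at both 24 and 72 h, and 3 at both 6 and 24 h. A single list held the remaining ones, 6 in that of 24 h, 4 in that of 72 h and 3 in that of 6 h. The gained peaks were mostly weak, with a median unscaled AUC of 355 at 72 h, and the difference between a weak peak and none can be that of passing the threshold of 200.

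The 4 motifs were then counted within 100 bases of each summit, on both strands. AP-1 was found in 38 of 118 regions (32.2%) against 32.3% of all regions, the E-box CACCTG in 18.6% against 17.9%, and RUNX in 16.9% against 16.8%. Sites that were 1.5-fold higher at 72 h held AP-1 in 12 of 24 cases (50%), and over all regions of this kind the share was 46.3%. Sites within 1.5-fold held it in 15 of 51 (29.4%, all regions 27.6%), gained sites in 9 of 27 (33.3%, all regions 39.9%) and sites 1.5-fold lower in 0 of 4 (all regions 12.1%). The members thus carried the motif about as often as other regions with the same behaviour. The SMAD palindrome GTCTAGAC occurred in 2 regions, 55177 bp downstream of MMP13 and 39743 bp upstream of MMP2, or 1.69% against 0.295% of all regions. In RefSeq promoter windows of GRCh38, from 250 bases before to 50 after the start, entries matched for MMP10, MMP14, TIMP1 and TIMP3. None of the 4 held AP-1 or the E-box, which 4.95% and 20.6% of all promoter windows hold. MMP14 and TIMP1 held RUNX, as did 13.1% of all windows. The other 6 members had no entry, so their promoters are not part of this count. Within 100 bases of the summit, the regions at the TSSs of MMP1 and MMP3 and the site 581 bp upstream of MMP9 held AP-1. The regions overlapping a TSS of MMP2, MMP10, MMP14, TIMP1, TIMP2 and TIMP3 held none.

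The wider proteolytic system was compared through 26 other genes, among them further metalloproteinases, TIMP4, RECK and the plasminogen activators. Of these, 25 had solvent AUC in their windows, with a median log2 ratio of 0.11, 0.22 and 0.28 at 6, 24 and 72 h and a range from -0.15 to 1.59 at 72 h. The total of 19 of them exceeded the median coding gene at 72 h, and 6 were in the highest 10%. The highest was MMP8, a neighbour of MMP10 with 7 of its 10 regions shared with members. PLAU, the urokinase that activates plasmin and through it metalloproteinases, had 30344 in solvent and 37795, 46110 and 52270, or 0.78. At the low end, MMP21 stood at -0.15, and FURIN, a convertase that activates MMP14, and MMP15 stood at -0.11. Over the 304 regions of these genes that no member window holds, 20% of the sites shared at 72 h were 1.5-fold higher. Over all regions the share was 22.9%.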

How the data were processed

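Per the study's methods and processing notes, the authors used Trimmomatic 0.38 for trimming, Bowtie2 2.4.5 for mapping to GRCh38, Picard against duplicates and SAMtools 1.4.1 against mitochondrial or poorly mapped reads. Genrich 0.5, set for ATAC-seq, then called peaks jointly from the 2 replicates of each condition, and blacklisted regions were left out. The deposited signal of a peak is its AUC, not normalised between lists, with a smallest value of 200. The authors' −log10 p at each summit, also deposited, served as an alternative, and their q column was not used. Reads per replicate were not used here, 0 columns of single samples were left aside, and the depth reached is unknown. The condition of a list was taken from its name.

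The 4 lists were merged, and the AUC was summed per region and list and scaled at regions within 3 kb of a TSS of GENCODE 44. A site was gained with a peak in a TGFβ1 list and none in solvent, and higher or lower from 1.5-fold. A list's level over a gene is the sum over its body and 50 kb on either side, and levels of genes were compared per kb. Intervals are 95% Wilson intervals, and the limit of a count of 0 is 3 counts. Named were the members' TSS regions, the largest and smallest ratio at 72 h, the strongest gained and the strongest solvent region of each window, and further regions picked after their values had been seen. The members, lists and motifs were chosen with earlier results of these data known. Merging, scaling and calls were tested on simulated data. Tools were pandas 2.3.3 and numpy 2.4.6 for tables, scipy 1.17.1 for intervals and matplotlib 3.10.9 for plots, under Python 3.11.15.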

Additional observations from a re-analysis of the deposited data

How the results depend on the processing

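Counts are given for 6, 24 and 72 h in that order. Shares over all regions under the same setting follow in brackets. The count of sites at least 1.5-fold higher was 17, 20 and 24 of 79. With a minimum AUC of 400 it was 8, 12 and 14, or 13.3%, 20% and 24.6% (7.09%, 14% and 17%). A window of 10 kb gave 11, 8 and 9 of 42, or 26.2%, 19% and 21.4% (11.7%, 20.3% and 22.9%). At 2-fold it was 5, 10 and 14, or 6.33%, 12.7% and 17.7% (3.45%, 8.37% and 10.5%). Per covered base it was 5, 11 and 9, or 6.33%, 13.9% and 11.4% (5.41%, 10.5% and 11.6%). The −log10 p at the strongest summit, a log-scale value, gave 0, 1 and 1, or 0%, 1.27% and 1.27% (0.128%, 1.07% and 1.58%). Without scaling the count was 42 at 6 h and 42 at 24 h, or 53.2% at both times (40.5% and 43%). Limited to regions nearest to a member gene, an alternative chosen after seeing the data, it was 11 at 24 h and 15 at 72 h. These were 23.4% and 31.9% of 47 (20.3% and 22.9%). The count of gained sites, 20, 32 and 27, was 7, 10 and 10 with lists of equal length. This was 8.14%, 11.2% and 11.2% (8.69%, 11.9% and 13.8%). In a window of 10 kb it was 20 and 16 at 24 and 72 h, or 32.3% and 27.6% (29.8% and 29.3%). A window of 100 kb gave 35 and 46 at 6 and 72 h, or 23.2% and 28.4% (22.9% and 29.3%). Where a shared peak had to overlap by at least 50% of both peaks, it was 31 at 6 h, or 31.3% (27.8%). The other 27 of 54 values stayed within 1.5 times. Log2 ratios of gene totals under the same settings were added after seeing the data. Those of MMP1, MMP2, MMP3, MMP9, MMP10, MMP13, MMP14 and TIMP2 at 72 h were above 0 under each of them. TIMP2 was at 0.01 with scaling by all shared regions, TIMP3 at -0.04 within 10 kb and TIMP1 at -0.03 in the main setting. The share of members past 1.5-fold at 72 h exceeded that of all regions except within 10 kb, per covered base and by −log10 p. Within 100 kb the shares were close, 23.4% and 22.9%, and the interval of the main setting, 21.3 to 41.2%, holds the 22.9% of all regions.

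No paired analysis was possible because each list pools both replicates, and leaving out a replicate could not be run for the same reason. Regions near the threshold of 200 can be gained or missed by depth alone, which is unknown here.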
